A study of Mus musculus with 20 samples.

Results

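The nuclear genes for the subunits of oxidative phosphorylation were followed in the distal colon (DC) of 20 C57BL/6 mice fed the Total Western Diet (TWD), a rodent diet modelled on what people in the United States eat, with 0, 2, 5 or 10% of resistant potato starch (RPS). Genes were taken by symbol: Nduf genes of the A, B, C, S and V series (complex I), Sdha to Sdhd (complex II), Uqcr genes (complex III), Cox4 to Cox8 genes (complex IV) and Atp5 genes (complex V). The 88 matched gene identifiers are part of a table of 26619, and 83 of them reached 10 counts in at least 5 mice. These 83 were made up of 38 of 39 genes of complex I, 4 of 4 of complex II, 8 of 8 of complex III, 15 of 18 of complex IV and 18 of 19 of complex V.

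All mice received the TWD for 6 weeks, and then each diet was fed for 3 more weeks, with 5 mice per diet by the description label. The 0% RPS group went on with the TWD and served as control. One library of polyadenylated RNA was sequenced per mouse from a piece of colon close to the anus. The labels give no cage, litter or sequencing date, and mouse numbers do not pair mice across diets.

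Oxidative phosphorylation takes electrons from NADH at complex I and from succinate at complex II and passes them through complex III to oxygen at complex IV. The proton gradient that complexes I, III and IV build across the inner mitochondrial membrane drives ATP synthesis at complex V. A small core of subunits is encoded in mitochondrial DNA and the others are encoded in the nucleus, so each complex other than complex II draws on both genomes. In the colon the epithelium oxidises butyrate, a product of the bacterial fermentation of starch, in this way.

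Libraries held 31.3 to 35.0 megacounts at 0% RPS, 24.5 to 31.1 at 2% RPS, 22.3 to 30.4 at 5% RPS and 18.4 to 26.6 at 10% RPS. The 0% and 10% RPS libraries did not overlap in depth, so depth and diet cannot be told apart by group. Each mouse carries the code of its title here. The description, which set the groups, and the treatment label disagree for 3 mice, with 5% against 2% for mouse RS10_717, 10% against 5% for mouse RS10_725 and 2% against 10% for mouse RS10_748. Levels are given as CPM, the count scaled to a common library size after TMM, a correction for library composition. Epithelial markers (8 genes, such as Krt20 and Slc26a3) summed to between 15686 and 20550.3 CPM at 0% RPS, and smooth muscle markers (7 genes, such as Myh11 and Actg2) to between 7272 and 11714 CPM, so both tissue layers were in the samples. The library of mouse RS10_721 (5% RPS) held 4010.3 CPM over 4 markers of exocrine pancreas, against 367 to 666 CPM in the other 19 mice.

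The 83 genes together took 1.55, 1.55, 1.59 and 1.49% of the CPM from the lowest to the highest RPS level. Divided by the length of the canonical transcript, their mean levels over the 20 mice ran from 0.282 to 766 CPM per kb. Among the genes put in complex I by symbol the highest levels were those of Ndufa6 at 332 ± 34.8 CPM per kb (SD, n = 20 mice), Ndufa4 at 235 ± 22.6 and Ndufb10 at 177 ± 19.6. Ndufa6 and Ndufb10 encode accessory subunits of complex I, whereas the protein of Ndufa4, named as one, is found in complex IV. In complex II the membrane anchor Sdhd stood highest at 208 ± 14.4 CPM per kb, followed by Sdha, the flavoprotein that oxidises succinate, at 131 ± 7.84. The other anchor, Sdhc, stood at 60.0 ± 3.96 CPM per kb and the iron-sulfur subunit Sdhb at 41.5 ± 2.77.

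In complex III the small subunits Uqcr10, Uqcrb and Uqcrh led with 432 ± 34.6, 368 ± 32.8 and 265 ± 23.1 CPM per kb (SD, n = 20 mice). In complex IV the order was Cox4i1 (726 ± 62.7 CPM per kb), Cox6c (596 ± 49.9) and Cox6a1 (555 ± 87.6), of which the last 2 differed by less than 1 SD. In complex V the catalytic head subunits Atp5f1b and Atp5f1a came first with 766 ± 44.1 and 524 ± 29.3 CPM per kb, ahead of Atp5mc3, a gene for the ring subunit c, at 467 ± 40.2. Which transcript a gene uses changes these per-length values and part of the order. Over the median length of coding transcripts, Atp5mc3 stood at 576 CPM per kb, above Atp5f1a at 537 and below Atp5f1b at 822. By that length Uqcrb (372 CPM per kb) was above Uqcr10 (357), and Cox6a1 (652) was above Cox6c (557). Atp5po was the lowest of complex V by either length, at 19.8 CPM per kb of canonical transcript and 19.98 over the median coding transcript.

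**Figure D1:**
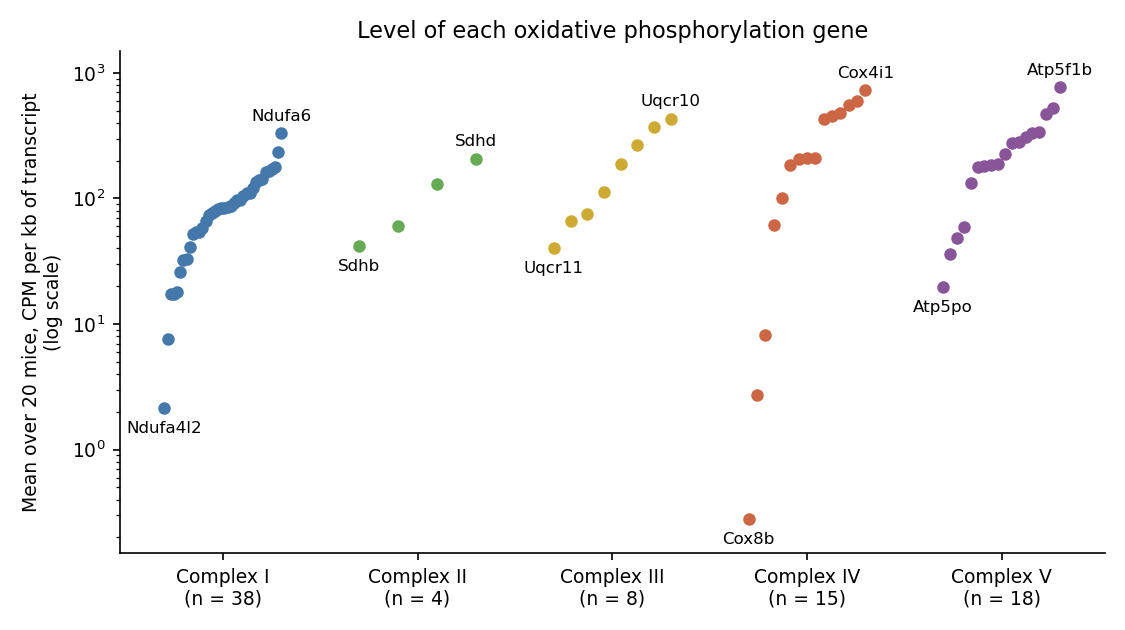
Mean level of each of the 83 genes over the 20 mice, in CPM per kb of canonical transcript on a log axis, with 1 point per gene, sorted within its complex. The highest and the lowest gene of each complex are named, and complexes I and IV reach down to Ndufa4l2 at 2.15 and Cox8b at 0.282 CPM per kb.

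Several subunits exist as a general isoform and a second one known from muscle, testis, lung or low oxygen. Per length, the general forms stood higher in the DC. Cox4i1 stood at 726 ± 62.7 CPM per kb (SD, n = 20 mice) and its lung and low-oxygen isoform Cox4i2 at 2.72 ± 0.478 CPM per kb. Cox6b1 stood at 432 ± 33.5 CPM per kb against 8.18 ± 0.828 for Cox6b2, known from testis. Ndufa4 stood at 235 ± 22.6 CPM per kb against 2.15 ± 0.441 for Ndufa4l2, known from low oxygen.

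Cox8a stood at 478 ± 89.3 CPM per kb and the muscle isoform Cox8b at 0.282 ± 0.105 (SD, n = 20 mice), or 1.01 CPM per kb over the median length of its coding transcripts. Cox7a2l, a related gene, stood at 208 ± 26.7 CPM per kb and the muscle isoform Cox7a1 at 61.4 ± 7.18. Cox7a2 stood at 184 ± 15.5 CPM per kb of canonical transcript but at 29.0 CPM per kb over the median coding transcript, so its order against Cox7a1 depends on the transcript taken. The share of Cox7a1 in the CPM of Cox7a1 and Cox7a2 lay between 13.7% and 19.0% over the 20 mice. The muscle isoform Cox6a2 (2 to 11 counts per mouse) and the testis isoform Cox8c (at most 2 counts) were below the count filter. Striated muscle markers (8 of 12 listed could be tested) summed to between 22.4 and 59.9 CPM over the 20 mice, and their part in the muscle isoforms was not tested.

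The other identifiers below the filter were Ndufb11b (at most 1 count), Cox5b-ps (at most 3 counts) and a second Atp5po identifier, a readthrough gene model (2 to 16 counts, with 10 counts reached in 4 mice). Just inside it were Cox8b, with 5 to 36 counts and 10 counts reached in 16 mice, Ndufa4l2 with 23 to 102 counts and Cox4i2 with 32 to 84 counts.

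Levels differed between mice of the same diet, and the genes of a mouse tended to lie on the same side. Each gene was scored as above or below its own median over the 20 mice. In mouse RS10_708 (0% RPS) 81 of the 83 genes were above it, in mouse RS10_748 (2% RPS) 79, and in mice RS10_717 and RS10_719 (5% RPS) 77 each. In mouse RS10_725 (10% RPS) only 2 genes were above it, in mouse RS10_703 (0% RPS) 3, in mouse RS10_716 (2% RPS) 4 and in mouse RS10_731 (10% RPS) 7. High and low mice were thus found on the same diet.

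Over all genes tested, the share above the median stayed between 47.7% and 52.6% in every mouse. Of the 83 genes, 33 had their highest level in mouse RS10_748 and 27 in mouse RS10_708, while 24 had their lowest level in mouse RS10_731, 18 in mouse RS10_725 and 13 in mouse RS10_703. The summed level of the 83 genes was 13969 CPM in mouse RS10_703 and 16964.5 CPM in mouse RS10_708, both on 0% RPS.

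Cytosolic ribosomal protein genes lay on the same side in several of these mice. Of 76 tested, 73 were above their median in mouse RS10_708 and 75 in mouse RS10_748, and 6, 4 and 2 in mice RS10_703, RS10_725 and RS10_731. They did not in others. In mouse RS10_724, 68 of 76 were above the median beside 10 oxidative phosphorylation genes. In mouse RS10_716, 46 of 76 were above it beside 4, and in mouse RS10_721, 11 of 76 beside 69. The 13 subunit genes of the mitochondrial DNA lay opposite to the nuclear genes in most of the mice named above. Of these 13, 12, 9 and 8 were above their median in mice RS10_703, RS10_716 and RS10_731, where most nuclear genes were below. In mice RS10_748, RS10_717 and RS10_719, where most nuclear genes were above, 5, 1 and 0 were above it. They lay on the same side as the nuclear genes in mice RS10_725 and RS10_708, with 2 and 9 above it. Their summed level lay between 65576 CPM in mouse RS10_701 and 81599 CPM in mouse RS10_729.

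Dbp, a target of the circadian clock whose level depends on the time of day, also differed between mice, from 3.76 CPM in mouse RS10_725 and 9.52 CPM in mouse RS10_703 to 114 CPM in mouse RS10_708. Its order was not that of the 83 genes throughout: mouse RS10_731 (7 genes above the median) had 59.6 CPM of Dbp and mouse RS10_724 (10 genes) 57.4 CPM, against 47.8 CPM in mouse RS10_748 (79 genes) and 16.6 CPM in mouse RS10_721 (69 genes). With log2 CPM of Dbp beside the diet trend in edgeR, 6 of the 83 genes were higher where Dbp was higher at an adjusted p up to 0.05 and 0 were lower, against 2206 of all 17893 genes tested in either direction. The times of collection are not in the labels, and their part in the differences between mice was not tested.

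**Figure D2:**
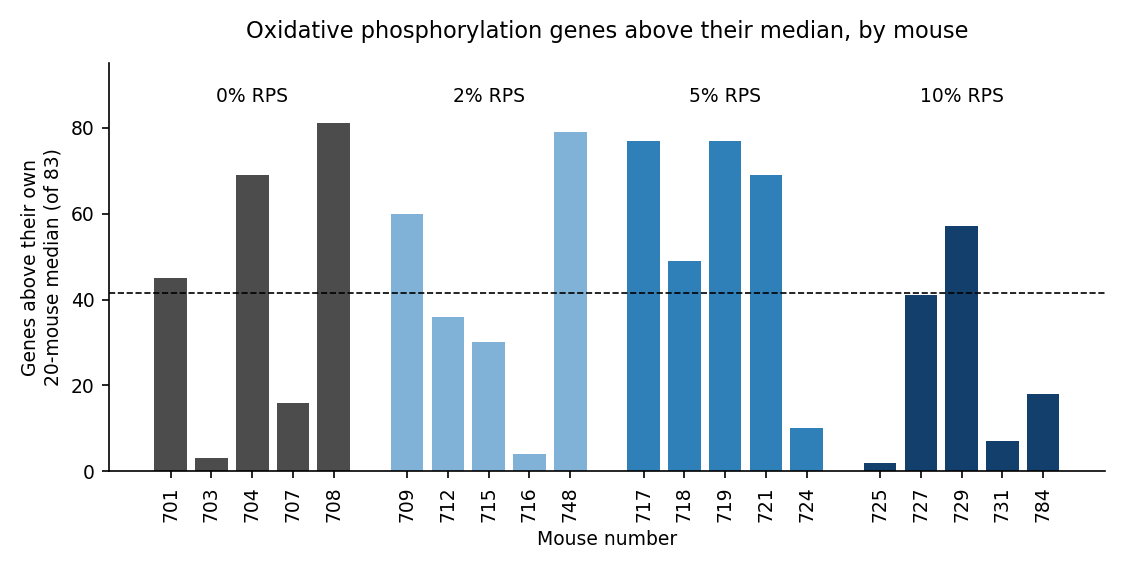
Number of the 83 genes that lay above their own median over the 20 mice, with 1 bar per mouse, grouped by the RPS level of the description label, labelled by the number in its code, and a dashed line midway between 0 and 83. Bars run from 2 (mouse RS10_725) to 81 (mouse RS10_708), and low and high bars occur together at 0%, 2% and 5% RPS.

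Genes also differed in how steady they were. The SD of log2 CPM within diets had a median of 0.125 over the 83 genes, below the 0.219 of all genes tested, and only 4 of the 83 were above the latter. The genes compared here were not matched for level, and all genes tested include many scarce ones. The head subunits Atp5f1a and Atp5f1b had SDs of 0.0791 and 0.0834. The most variable was the scarce Cox8b at 0.447, followed by the complex IV subunit Cox5b at 0.348, Ndufa4l2 at 0.279 and Cox8a at 0.271.

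Cox5b ran from 51.5 CPM in mouse RS10_715 (2% RPS) to 119 CPM in mouse RS10_709 (2% RPS), and Cox8a from 166 CPM in mouse RS10_715 to 346 CPM in mouse RS10_719 (5% RPS). Both extremes of Cox5b, and the lowest Cox8a value, thus came from a single diet. A stretch of 50 bases, the read length, that recurs in the genome was found at 38.2% of the positions of the Cox5b transcript and at 18.6% of those of Cox8a.

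The next question was whether the summed level of a complex changed with RPS. From the lowest to the highest RPS level, complex I summed to 3723 ± 334, 3712 ± 291, 3715 ± 147 and 3442 ± 239 CPM (SD, n = 5 mice per diet). Complex II gave 1043 ± 59.5, 1027 ± 65.0, 1041 ± 45.4 and 987 ± 62.7 CPM, and complex III 1711 ± 124, 1726 ± 102, 1794 ± 97.6 and 1685 ± 99.9 CPM. All diets overlapped in each of these sums.

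Complex IV summed to 2889 ± 310, 2833 ± 293, 3023 ± 186 and 2770 ± 152 CPM in the same order, and complex V to 6091 ± 404, 6158 ± 307, 6346 ± 241 and 6036 ± 408 CPM. Complexes III, IV and V had their highest mean at 5% RPS, and each of the complexes had its lowest mean at 10% RPS, which was below its mean at 0% RPS by less than the SD at 0% RPS. In bulk tissue fewer cells of a type and less RNA per cell cannot be told apart.

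**Figure D3:**
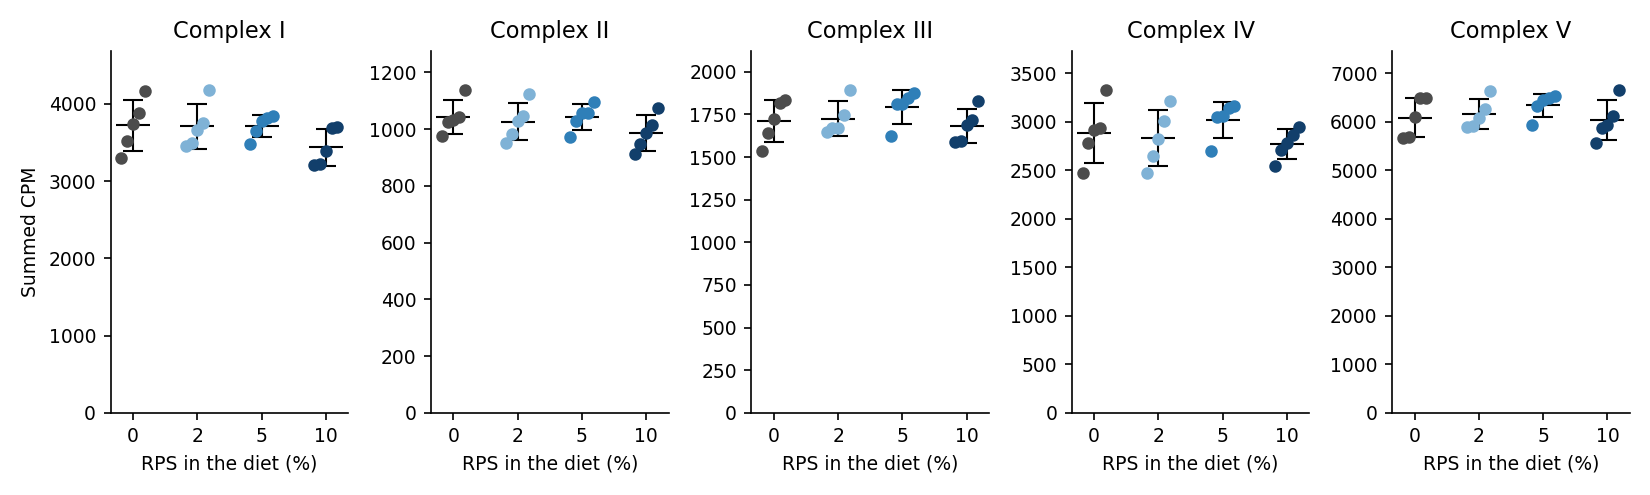
Summed CPM of the genes of each complex against the RPS level of the diet, from 0 on a linear axis, with 1 point per mouse and bars for mean and SD (n = 5 mice per diet). Grouped by the description label, the 4 diets overlap in every panel, and complex I at 10% RPS averages 3442 CPM against 3723 CPM at 0% RPS.

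Each RPS level was then compared with 0% RPS gene by gene with edgeR's quasi-likelihood test, and p-values were adjusted over all 17893 genes tested. The 3 comparisons share the 5 mice at 0% RPS. With calls set at 1.5-fold or more and an adjusted p up to 0.05 (the study's thresholds), 0 of the 83 genes were called at 2% RPS, 0 at 5% RPS and 0 at 10% RPS, where the shares called of all genes were 0%, 0% and 0.0391%. DESeq2 with the same thresholds also called 0 of the 83 at each level. The share of all genes it called with the fold threshold is not given here, so this 0 has no background beside it.

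At 2% RPS 0 genes were lower and 0 higher at an unadjusted p under 0.05 (background 0.721% and 0.693%). At 5% RPS 2 were lower and 1 higher (background 4.5% and 4.69%): Atp5po and Ndufa3 with log2 fold changes of -0.21 and -0.16, and Cox6a1 with 0.31, at edgeR adjusted p of 0.410, 0.542 and 0.422. At 10% RPS 14 of the 83, or 16.9%, were lower at an unadjusted p under 0.05, where the background was 7.87%, and 0 were higher, where it was 7.32%. The 14 were 7 genes of complex I, 0 of complex II, 1 of complex III, 3 of complex IV and 3 of complex V.

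The sizes at 10% RPS were small. Of these differences, 73 were within 0.2 of 0 on the log2 scale, 10 were below -0.2 and 0 above 0.2, and 1, Cox8b, passed a fold of 1.5. The log2 fold change was below 0 in 68 of 83 genes, or 81.9%, against 53.2% of all genes tested, and its median was -0.08 against -0.01. Since the genes of a mouse moved together, these 83 values are not independent, and the count describes the same few mice many times. Without mouse RS10_708 the median was -0.04 and 6 genes were lower at an unadjusted p under 0.05, and without mouse RS10_703 the median was -0.12 and 24 genes were lower. With the treatment label as the diet the median was -0.01 and 3 genes were lower. The shares of all genes in these other fits are not given here.

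By complex, the median log2 fold change at 10% RPS was -0.10 in complex I, where 36 of 38 genes were below 0, and -0.08 in complex II (4 of 4) and complex IV (13 of 15). It was -0.002 in complex III (4 of 8) and -0.02 in complex V (11 of 18). At 5% RPS the medians were -0.001, 0.0006, 0.07, 0.02 and 0.05 from complex I to V, and at 2% RPS all lay between -0.02 and 0.02. With the treatment label the 10% RPS medians were -0.02, -0.03, 0.03, -0.01 and 0.05.

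Short transcripts stood lower in general at 10% RPS. Among other protein-coding genes the median log2 fold change was -0.06 for transcripts under 1 kb (n = 655), -0.04 for 1 to 2 kb (n = 2620) and -0.001 for 2 kb and over (n = 12057). The medians of the oxidative phosphorylation genes in these classes were -0.10 (n = 41), -0.08 (n = 21) and -0.06 (n = 21), and the part of transcript length in them was not tested.

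**Figure D4:**
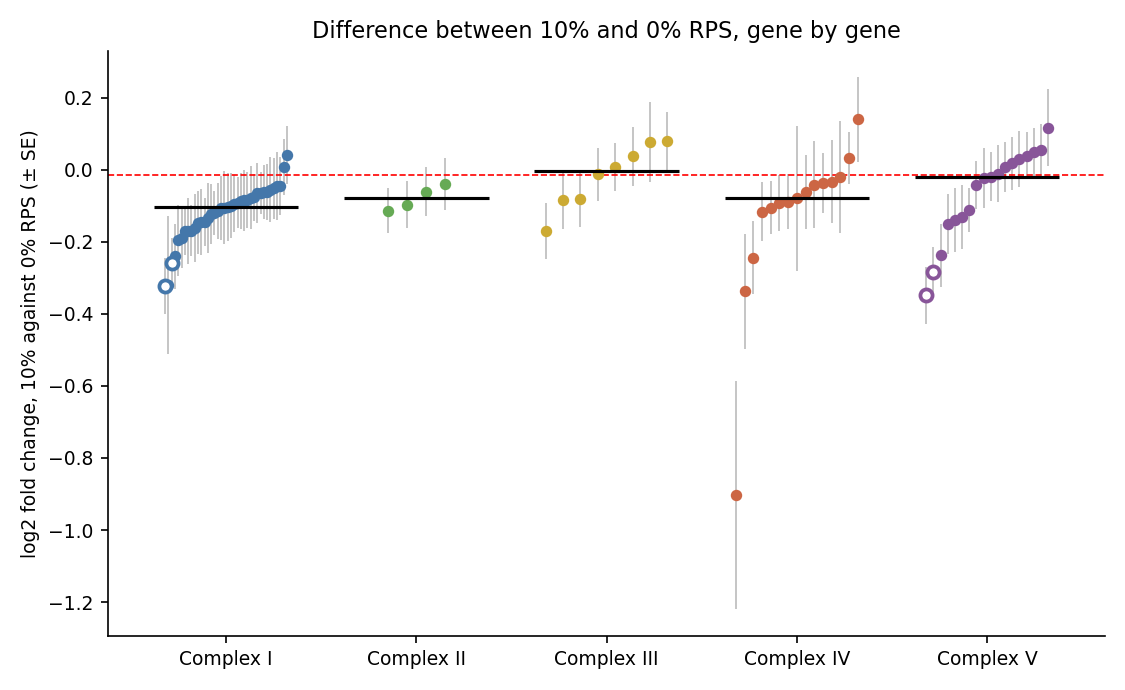
log2 fold change between 10% and 0% RPS of each gene with its standard error from edgeR, sorted within its complex, with a black bar at the median of the complex and a dashed red line at the median of all genes tested (-0.01). Open circles mark the 4 genes with a linear trend over RPS, and in complex I 36 of 38 points lie below 0.

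The design is a dose series, so a linear trend of log2 CPM over RPS percent was tested with edgeR with calls at an adjusted p up to 0.05 and no fold threshold. Of the 83 genes 4 fell with RPS (background 0.95%) and 0 rose (background 1.15%). The 4 were Ndufa3 and Ndufb11, accessory subunits of the membrane arm of complex I, Atp5mc2, 1 of 3 genes for subunit c of the proton-driven ring of complex V, and Atp5po, the subunit of the stalk that holds the catalytic head still (also called OSCP). At an unadjusted p under 0.05, 14 of the 83 were lower with RPS (background 10.1%) and 0 were higher (background 9%). This call rested on the labels: with the treatment label 0 genes were called, at adjusted p of 0.302 to 0.385 for the 4, and without the 3 mice whose labels disagree 0 were called, at 0.0591 to 0.0855. It also rested on single mice, with 0 genes called without mouse RS10_708 or RS10_784, 2 without mouse RS10_729 or RS10_731 and 6 without mouse RS10_703. For these label and omission fits the shares of all genes called are not given here.

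Because these 4 genes were called in the trend test by the description label, the 250 bases before the start of the canonical transcript of each are shown, from GRCm39 with GENCODE vM39, 5′ to 3′ on the strand of the gene. They lie at chr7:3620122-3620371 (plus strand) for Ndufa3, chrX:20484458-20484707 (minus strand) for Ndufb11, chr15:102579563-102579812 (minus strand) for Atp5mc2 and chr16:91728576-91728825 (minus strand) for Atp5po. The genes span chr7:3620342-3623326, chrX:20481563-20484457, chr15:102571295-102580787 and chr16:91720317-91728575 in the same order, so the window of Atp5mc2 and the last part of that of Ndufa3 lie inside the span of the gene, whose other transcripts start earlier. Capitals mark matches to the motif letters given below.
Ndufa3: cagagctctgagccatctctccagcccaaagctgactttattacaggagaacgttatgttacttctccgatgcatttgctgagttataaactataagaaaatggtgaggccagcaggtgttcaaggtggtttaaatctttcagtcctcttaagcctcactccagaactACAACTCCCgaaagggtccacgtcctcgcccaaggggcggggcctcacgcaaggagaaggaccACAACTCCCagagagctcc
Ndufb11: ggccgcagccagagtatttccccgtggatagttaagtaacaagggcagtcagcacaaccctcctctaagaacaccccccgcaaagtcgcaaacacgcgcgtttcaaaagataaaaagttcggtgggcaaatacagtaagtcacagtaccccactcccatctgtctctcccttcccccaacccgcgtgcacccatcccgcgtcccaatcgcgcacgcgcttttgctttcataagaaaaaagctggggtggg
Atp5mc2: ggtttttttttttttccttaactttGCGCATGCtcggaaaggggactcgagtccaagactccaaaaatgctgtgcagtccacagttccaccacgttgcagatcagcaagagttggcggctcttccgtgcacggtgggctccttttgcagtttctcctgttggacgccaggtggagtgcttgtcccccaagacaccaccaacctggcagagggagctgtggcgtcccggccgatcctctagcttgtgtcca
Atp5po: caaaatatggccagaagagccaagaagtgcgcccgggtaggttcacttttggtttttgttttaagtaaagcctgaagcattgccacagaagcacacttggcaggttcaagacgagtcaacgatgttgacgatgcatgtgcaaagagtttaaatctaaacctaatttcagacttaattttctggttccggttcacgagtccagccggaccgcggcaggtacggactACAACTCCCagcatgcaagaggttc

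The motifs were the letters GCGCATGC for NRF1, CCGGAAG for GABPA and other ETS factors, AAGATGGC for YY1 and TCAAGGTCA for the estrogen-related receptors (ERR), regulators known from respiratory chain genes. They were searched on both strands from 250 bases before to 50 bases after the start. The capitals in Atp5mc2 are an NRF1 match, and 2 more lie past its start, which overlap each other. NRF1 letters were in 8 of the 83 promoters (9.64%) and in 4.28% of the 15332 other protein-coding genes tested. YY1 letters, with 1 match past the start of Ndufa3, were in 6 (7.23%) and in 3.03% of the others. CCGGAAG was in 12 of the 83 (14.5%) and 13.3% of the others, and TCAAGGTCA in only 1 of the 83 (1.20%) and 0.339% of the others.

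The capitals in Ndufa3 and Atp5po match ACAANTCCC, letters from the motif of ZNF143, which were added to the search after these sequences had been read. Those letters were in 4 of the 83 promoters (4.82%) and 3.10% of the others. The window of Ndufb11 held none of the 5. A match is a description of letters, and nothing about binding was measured.

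The levels of the 4 genes were as follows. Ndufa3 stood at 92.1, 81.8, 99.7, 89.4 and 98.1 CPM in mice RS10_701, RS10_703, RS10_704, RS10_707 and RS10_708 (0% RPS) and at 72.5, 80.1, 70.1, 72.1 and 73.8 CPM in mice RS10_725, RS10_727, RS10_729, RS10_731 and RS10_784 (10% RPS). By the description label the 10% RPS mice were all below the controls, but mouse RS10_748, given below with 2% RPS and labelled 10% by treatment, had the highest level of the 20 mice. At 2% RPS, mice RS10_709, RS10_712, RS10_715, RS10_716 and RS10_748 had 89.6, 88.4, 81.0, 77.0 and 105 CPM, and at 5% RPS, mice RS10_717, RS10_718, RS10_719, RS10_721 and RS10_724 had 85.5, 80.1, 88.2, 84.6 and 73.8 CPM, both overlapping the controls. The slope was -0.32 ± 0.07 on the log2 scale per 10% RPS (SE, adjusted p = 0.0225 by edgeR), and the 10% RPS difference alone was -0.32 ± 0.08 (adjusted p = 0.0821).

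Ndufb11 stood at 134, 118, 136, 120.0 and 144 CPM in the same 5 mice at 0% RPS and at 116, 113, 109, 109 and 97.9 CPM at 10% RPS, again with all 5 below all controls by the description label. It had 136, 134, 124, 134 and 156 CPM at 2% RPS and 130.0, 119.9, 124.5, 126 and 132 CPM at 5% RPS. Both of these groups overlapped the controls, and the mean at 2% RPS (136.7 CPM) was above that at 0% RPS (130.3 CPM). The slope of Ndufb11 was -0.30 ± 0.07 per 10% RPS (SE, adjusted p = 0.0278 by edgeR), and its 10% RPS difference -0.26 ± 0.07 (adjusted p = 0.0958).

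Atp5po stood at 60.8, 52.1, 60.1, 53.6 and 64.5 CPM at 0% RPS and at 39.3, 46.5, 50.3, 46.2 and 46.4 CPM at 10% RPS, without overlap by the description label. At 2% RPS it had 55.8, 53.0, 48.5, 50.8 and 58.0 CPM and at 5% RPS 53.4, 48.0, 54.3, 51.5 and 44.2 CPM, with means of 53.2 and 50.3 CPM between the outer groups. The slope was -0.33 ± 0.07 per 10% RPS (SE, adjusted p = 0.0237 by edgeR) and the 10% RPS difference -0.35 ± 0.08 (adjusted p = 0.0710).

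Atp5mc2 stood at 266, 218, 271, 248 and 281 CPM at 0% RPS and at 205, 227, 219.6, 197 and 207 CPM at 10% RPS, where mice RS10_727 and RS10_729 were above control mouse RS10_703. At 2% RPS the values were 255, 275, 241, 245 and 288 CPM and at 5% RPS 234, 236, 246, 246 and 247 CPM. Both of these groups overlapped the controls, and the mean at 2% RPS (260.8 CPM) was above that at 0% RPS (256.9 CPM). The slope of Atp5mc2 was -0.31 ± 0.07 per 10% RPS (SE, adjusted p = 0.0209 by edgeR) and its 10% RPS difference -0.28 ± 0.07 (adjusted p = 0.0837).

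**Figure D5:**
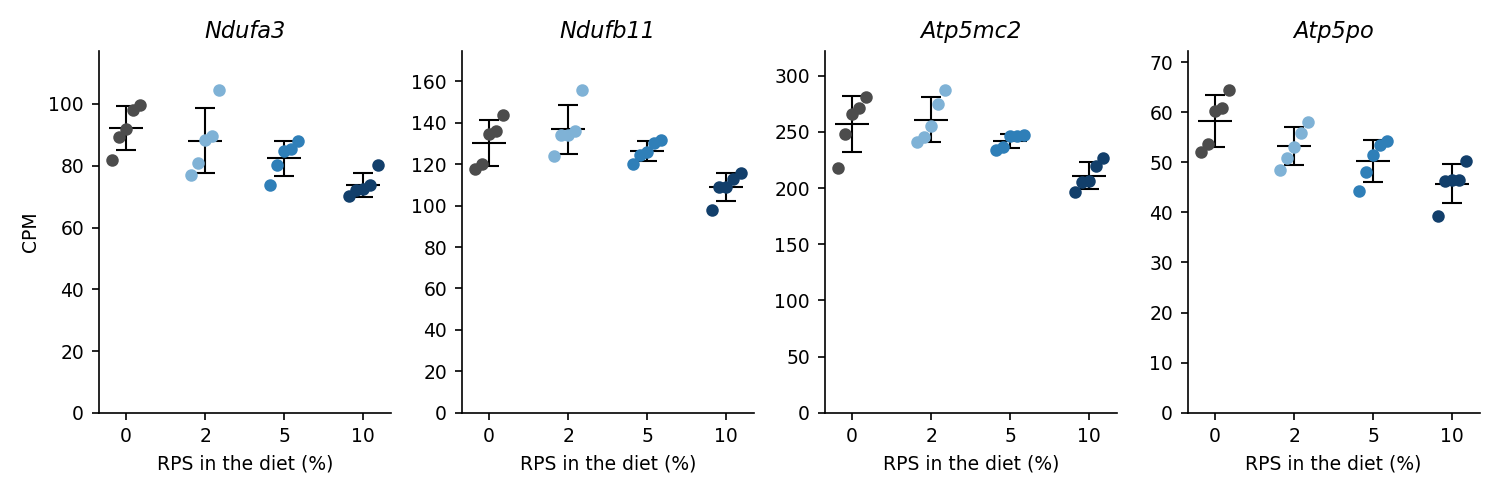
CPM of the 4 genes with a linear trend against the RPS level of the diet, from 0 on a linear axis, with 1 point per mouse and bars for mean and SD (n = 5 mice per diet). Ndufa3 averages 92.2 CPM in controls against 73.7 CPM with 10% RPS, and in 3 of the 4 genes all points at 10% RPS, grouped by the description label, lie below all points at 0% RPS.

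In total 3 of the 83 genes (Ndufa3, Ndufb11 and Atp5po) had all 5 mice at 10% RPS below all 5 controls, against 1.15% of all genes tested, and 0 had them above, against 1.13%. This holds by the description label: mouse RS10_748, which the treatment label puts at 10%, had 105 CPM of Ndufa3, 156 CPM of Ndufb11 and 58.0 CPM of Atp5po, each above the lowest control, so none of the 3 genes is separated under that label. DESeq2 without a fold threshold called the same 4 genes at 10% RPS (background 2.85%), at adjusted p of 0.0142 for Ndufa3, 0.0291 for Ndufb11, 0.0116 for Atp5mc2 and 0.00724 for Atp5po. For the trend it called 5, these 4 and Cox8b (background 5.6%). A test of any difference between diets called 0 of the 83 with edgeR (background 0.0727%), of which 8 had an unadjusted p under 0.05 (background 10.6%), and 3 with DESeq2, namely Ndufb11, Atp5mc2 and Atp5po (background 2.09%).

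The 4 genes differed in how surely their reads can be placed. Of the stretches of 50 bases in the canonical transcript, 88.4% of those of Atp5mc2 occur letter for letter elsewhere in the genome, 17.8% of those of Ndufb11, 6.29% of those of Atp5po and 0% of those of Ndufa3. Among all 83 genes 33 had none that recur and 6 had over 50%: Atp5mc2, Atp5mc1 (84.4%), Ndufs5 (75.4%), Cox7c (71.5%), Atp5mg (68.7%) and Uqcrb (58.7%). How the authors counted reads that match several places is not given in the sources used here, so the levels of these 6 genes are uncertain.

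Exons also overlap other genes, as those of 58 of the 83 genes do. On the opposite strand Ndufa3 overlaps Tfpt and Oscar, and Ndufb11 overlaps Rbm10. Atp5po overlaps 2 genes there, among them D430001F17Rik, and Atp5mc2 overlaps 1. On the same strand Atp5po overlaps its readthrough model and Atp5mc2 overlaps 1 other gene. The kit marked the strand, but whether the counting used it is not given in the sources used here.

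Subunit c is made from 3 genes, Atp5mc1, Atp5mc2 and Atp5mc3, whose proteins differ in the targeting sequence that is cut off on import and yield the same mature subunit. Atp5mc2 passed the trend test and the other 2 genes did not, a contrast that was not itself tested. Atp5mc1 had 181 ± 29.2 CPM in controls against 197 ± 26.2 CPM with 10% RPS (SD, n = 5 mice), and Atp5mc3 445 ± 42.6 and 454 ± 40.0 CPM, with log2 differences of 0.12 ± 0.11 and 0.03 ± 0.08 (SE, edgeR adjusted p of 0.648 and 0.900).

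The share of Atp5mc2 in the sum of the 3 genes, which does not depend on library scaling, was 29.4, 27.4, 27.3, 31.3 and 30.2% in the 5 mice at 0% RPS. It was 28.7, 31.5, 29.0, 28.7 and 28.4% at 2% RPS, and 24.2, 26.2, 26.5, 26.0 and 27.7% at 5% RPS. At 10% RPS it was 26.3, 26.0, 22.8, 24.4 and 23.3%, below all controls and all mice at 2% RPS by the description label. By the treatment label the groups overlap, since mouse RS10_748 (28.4%) is then a 10% RPS mouse above controls RS10_703 and RS10_704, and mouse RS10_717 (24.2%) a 2% RPS mouse. By the description label the share of Atp5mc3 was 49.7 to 50.9% at 0% RPS and 48.2 to 51.2% at 2% RPS. It was 52.5 to 54.6% at 5% RPS and 52.3 to 53.4% at 10% RPS, so it was no higher at 10% than at 5% RPS. These shares were looked at after the trend of Atp5mc2 had been seen, and they carry the uncertainty of Atp5mc1 and Atp5mc2 given above.

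The genes next to the threshold of the trend were Cox8b and Atp5me, a small membrane subunit of complex V. Cox8b had 0.821, 0.538, 0.776, 0.654 and 1.08 CPM at 0% RPS and 0.418, 0.870, 0.298, 0.349 and 0.196 CPM at 10% RPS, where mouse RS10_727 was higher than all but 1 control. Its slope was -0.94 ± 0.29 per 10% RPS (SE, adjusted p = 0.0789 by edgeR) and its 10% RPS difference -0.90 ± 0.32 (adjusted p = 0.182). It rests on 5 to 36 counts per mouse. The summed level of the striated muscle markers ran from 27.0 to 46.3 CPM at 0% RPS (mean 39.1) and from 31.7 to 34.9 CPM at 10% RPS (mean 33.1). All 8 markers tested were below 0 at 10% RPS, where 53.2% of all genes tested were, with a median log2 difference of -0.15, and 0 passed the trend. Their part in the level of Cox8b was not tested.

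Atp5me had 109 ± 13.9 CPM in controls against 92.0 ± 4.02 CPM with 10% RPS (SD, n = 5 mice), with a slope of -0.25 ± 0.08 (SE, edgeR adjusted p = 0.0913). In each complex the gene with the smallest p among those above 0 at 10% RPS was Ndufs4 (log2 0.04 ± 0.08), Uqcrb (0.08 ± 0.08), Cox6a1 (0.14 ± 0.12) and Atp5mc1 (0.12 ± 0.11), at edgeR adjusted p of 0.608 or more. Complex II had no gene above 0. Among those below 0 the values for complexes II and III were Sdhc at -0.11 ± 0.06 (adjusted p = 0.398) and Uqcr11 at -0.17 ± 0.08 (adjusted p = 0.311).

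The complex II genes Sdha, Sdhb, Sdhc and Sdhd, all encoded in the nucleus, had 10% RPS differences of -0.10, -0.06, -0.11 and -0.04, each within 2 SE of 0. Atp5if1, the inhibitor that stops complex V from running backwards, had 117 ± 10.8 CPM in controls against 121 ± 7.61 CPM with 10% RPS (SD, n = 5 mice), a log2 difference of 0.05 ± 0.07 (edgeR adjusted p = 0.773). The isoforms Cox7a1 and Ndufa4l2 had -0.06 ± 0.10 and -0.32 ± 0.19, and Cox4i2 -0.34 ± 0.16, at edgeR adjusted p of 0.824, 0.441 and 0.321.

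Partners of the 83 genes were counted in the same fits, grouped by the description label, on which the 4 trend calls above rested. The trend calls of the partners are given by that label only. Of all genes tested, 0.95% were called lower in this trend test and 1.15% higher. At 10% RPS 7.87% of all genes were lower and 7.32% higher at an unadjusted p under 0.05. Of the 13 subunit genes in mitochondrial DNA, 0 passed the trend test in either direction. The median log2 difference of these 13 at 10% RPS was -0.06, with 0 at an unadjusted p under 0.05. Of Ndufab1, Cyc1 and Cycs, which the symbol rule left out, 0 passed the trend. Cytochrome c (Cycs), the carrier between complexes III and IV, had 28.8 ± 3.55 CPM in controls against 38.2 ± 5.08 CPM with 10% RPS (SD, n = 5 mice, trend adjusted p = 0.0639 by edgeR).

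Of 46 assembly factors of the complexes tested, 2 fell (background 0.95%) and 1 rose (background 1.15%) with RPS, with a median log2 difference of -0.02 at 10% RPS. Cox16, an assembly factor of complex IV, had 6.83 ± 0.464 CPM in controls against 4.80 ± 0.507 CPM with 10% RPS (SD, n = 5 mice, trend adjusted p = 0.0181 by edgeR). Uqcc3, an assembly factor of complex III, went from 24.0 ± 4.51 to 17.1 ± 3.53 CPM (trend adjusted p = 0.0326), and Sco1, which delivers copper to complex IV, from 25.6 ± 1.29 to 31.4 ± 3.51 CPM (trend adjusted p = 0.0476).

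Of 11 regulators of mitochondrial gene expression, among them Ppargc1a, Nrf1, Gabpa, Esrra and Tfam, 0 passed the trend and 0 had an unadjusted p under 0.05 at 10% RPS. Of 13 citrate cycle genes 1 fell (background 0.95%). It was Idh3g, a subunit of isocitrate dehydrogenase, which went from 139 ± 9.70 CPM to 121 ± 8.20 CPM (SD, n = 5 mice, trend adjusted p = 0.0408 by edgeR). Of 15 genes of fatty acid and butyrate oxidation 0 passed the trend, and of 14 glycolysis genes 0 did, with median log2 differences at 10% RPS of -0.02 and 0.13. Hexokinase 2 (Hk2) had the largest glycolysis difference at 0.73 (trend adjusted p = 0.0723).

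Of 77 mitochondrial ribosomal protein genes tested, 1 fell with RPS (background 0.95%), and their median at 10% RPS was -0.005. It was Mrpl24, with a slope of -0.22 (trend adjusted p = 0.0301 by edgeR). Of 76 cytosolic ribosomal protein genes 6 fell with RPS (background 0.95%) and 0 rose (background 1.15%). Their median at 10% RPS was -0.16, and 73 were below 0, against 53.2% of all genes tested. Of 37 proteasome genes 0 passed the trend, with a median of 0.08. The lower median at 10% RPS was thus larger in cytosolic ribosomal protein genes than in the genes of any of the 5 complexes, a difference that was not tested.

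The 8 epithelial markers summed to between 18458 and 22237 CPM at 10% RPS, against 15686 to 20550.3 CPM at 0% RPS, and 2 of them rose with RPS (background 1.15%). Slc26a3, the chloride exchanger of surface colonocytes, went from 1102 ± 157 to 1632 ± 119 CPM, and Krt20, a keratin of mature epithelium, from 565 ± 226 to 1059 ± 199 CPM (SD, n = 5 mice, trend adjusted p of 0.00423 and 0.0249 by edgeR). The 7 smooth muscle markers summed to between 8568 and 10653 CPM at 10% RPS, against 7272 to 11714 CPM, and 0 passed the trend. The part of these markers in the lower levels of the 4 genes was not tested, and their trends are given by the description label only. With Dbp as a covariate, chosen after seeing the data, Ndufa3, Atp5po and Atp5mc2 kept trend adjusted p of 0.0408, 0.0412 and 0.0423, and Ndufb11 had 0.0522 by edgeR.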

How the data were processed

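RNA from the distal colon of 20 mice was sequenced with the TruSeq Stranded mRNA kit as single-end reads. After trimming for quality, the authors mapped them to GRCm39 in CLC Genomics Workbench and deposited raw counts per gene and mouse, not normalised and with no mice pooled. The annotation release and the strand setting of the counting are not given in the sources used here.

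Groups followed the description label. Of 26619 gene identifiers 26338 were found in GENCODE vM39, which gave symbols, transcripts and positions. In R 4.3.3, edgeR 4.0.16 (filterByExpr at a minimum count of 10, TMM scaling, robust glmQLFit and glmQLFTest) was fitted to all 20 mice, and 17893 genes were tested with Benjamini-Hochberg adjustment. DESeq2 1.42.0 was an alternative. log2 CPM used a prior count of 2. Each p-value sets a difference between diets against the spread between mice of a diet. For the trend it sets the slope against the spread of mice around a line, which includes departures of diet means from it. Counts limit precision only for scarce genes: a count of 3 equals 0.0850 to 0.163 CPM. Mice of a diet differed beyond sampling noise (chi-square per degree of freedom 9.74 to 67.9), so none was taken for a library deposited again. The edgeR procedure was also run on simulated counts drawn independently for each gene. Differences shared by the genes of a mouse, as seen here, were not simulated.

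The genes and lists were chosen with earlier results of these data known. Genes named with values were, per complex, the 3 highest per kb, those with the smallest p in each direction at 10% RPS, every called gene, the isoform sets, the Sdh genes and Atp5if1, and those next to the count filter. Others, such as Cox5b, Atp5me and the genes of the lists beside them, were named after their values were seen. Alternatives were DESeq2, RLE scaling, library sizes without mitochondrially encoded genes, no count filter, the treatment label, omission of mice, fits of 2 diets, no fold threshold, Ndufa4 counted in complex IV and Dbp as a covariate.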

Additional observations from a re-analysis of the deposited data

Results flagged for a closer look

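Within groups of 5 mice, 12 of 156 sets of values had a lowest or highest mouse farther from its nearest neighbour than Dixon's 95% limit allows. Chance flags about 1 in 20 groups, or 7.8 of 156.

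Mouse RS10_724 (5% RPS) was the lowest of its diet in 6 of them. Its library held 22.3 megacounts (next 28.7), its summed levels were 1626 CPM in complex III (next 1809 CPM) and 2702 CPM in complex IV (next 3051 CPM), and it had 1415 CPM of Atp5f1b, 257 CPM of Cox6c and 133 CPM of Cox7a2 (next 1535, 306 and 159 CPM).

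Mouse RS10_748, in the 2% RPS group and with a treatment label of 10%, was the highest of its diet in 5. It had 347 CPM of Cox6c, 165 CPM of Cox7a2, 224 CPM of Uqcr10, 127 CPM of Uqcr11 and 237 CPM of Uqcrb (next 298, 146, 193, 107 and 202 CPM). Mouse RS10_729 was the highest at 10% RPS for Uqcrb, with 225 CPM (next 201 CPM).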

How the results depend on the processing

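The count of genes with a trend was 4 in the reported fit. It was 0 with the treatment label and 0 without the 3 mice whose labels disagree, and leaving out 1 mouse at a time gave 0 to 6: 0 without mouse RS10_708 and 0 without mouse RS10_784, 2 without mouse RS10_729, 2 without mouse RS10_731 and 6 without mouse RS10_703. Each of the 4 slopes stayed below 0 in all 20 fits with 1 mouse left out and passed the threshold in 17 (Ndufa3, Atp5mc2 and Atp5po) or 16 (Ndufb11) of them. For 10% against 0% RPS the count of 0 became 4 with DESeq2 and no fold threshold, a setting chosen after seeing the data, and 0 to 1 with 1 mouse left out, the 1 being Cox8b without mouse RS10_727. For any difference between diets DESeq2 gave 3. The counts at 2% and 5% RPS were 0 under every setting. The number of genes lower at 10% RPS at an unadjusted p under 0.05 (14) was 8 with Dbp as a covariate and 9 with only the 2 diets fitted. Shares of all genes are not given here for the label, mouse omission, covariate and 2-diet settings. The medians of complexes I, II and IV at 10% RPS stayed below 0 with each mouse left out, while those of complex III (-0.05 to 0.04) and complex V (-0.05 to 0.02) crossed 0. The cause of these changes was not tested. Depth limits Cox8b (5 to 36 counts) and the genes below the count filter. No paired analysis was possible because mouse numbers are unique to an animal.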
